A study of Mus musculus with 2 samples.

Results

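A set of 10 genes that govern the passage of cells through the G1 phase were followed in dysplastic mouse gastric organoids: the D cyclin genes Ccnd1, Ccnd2 and Ccnd3, the kinase genes Cdk4 and Cdk6, the inhibitor genes Cdkn1a, Cdkn1b, Cdkn2a and Cdkn2b, and Rb1. The genes were taken by symbol, and all 10 were found among the 32227 genes of the deposited tables. The cells came from Meta4 organoids, a dysplastic line from the stomach corpus, that were kept for 1 day with pyrvinium, an anthelmintic drug, or with its solvent DMSO. Sampling came before the shape of the organoids was disrupted, and the stated question was which cell subpopulations respond to the drug. Both groups carried the transgene Mist1-CreERT2Tg/+ together with LSL-K-ras(G12D)Tg/+, and both are labelled with dysplasia induction. In such animals a tamoxifen-inducible Cre recombinase under the control of Mist1, a gene of gastric chief cells, can switch on a mutant K-ras allele, so the DMSO organoids are also dysplastic and carry that allele. A single organoid line and 1 single-cell library per treatment were analysed. No difference below therefore has a replicate check, no test was possible, and "higher" or "lower" compares these 2 libraries.

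D cyclins bind Cdk4 or Cdk6, and the active kinases phosphorylate the retinoblastoma protein, the product of Rb1, which then releases E2F transcription factors that switch on genes of DNA replication. Inhibitors of the INK4 family, p16 from Cdkn2a and p15 from Cdkn2b, bind Cdk4 and Cdk6 directly. Inhibitors of the Cip/Kip family, p21 from Cdkn1a and p27 from Cdkn1b, act on cyclin-bound kinases, and Cdkn1a is a classic target of p53. In epithelia these inhibitors are known from differentiation, stress and oncogene-driven arrest, while D cyclins connect growth factor and Ras signals to the cell cycle.

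The pyrvinium library gave 854 cells with a median of 31517 counts per cell and the DMSO library 1602 cells with a median of 18592.5. A cell was a barcode with at least 13100 counts in the pyrvinium library or 9320 in the DMSO library. The counts summed over cells were 37046673 with pyrvinium and 39980497 with DMSO, and levels are given as counts per 1000000 of that sum (CPM). Intervals are 95%. Those of levels and ratios are exact, treat each count as independent and cover counting error only. Those of shares of cells are binomial, use expected numbers of cells and cover the sampling of cells only. Epithelial markers summed to 5877 CPM with pyrvinium and 8723 CPM with DMSO, and mesenchymal markers to 1.05 CPM with pyrvinium and 1.10 CPM with DMSO. Immune markers summed to 3.59 CPM with pyrvinium and 1.73 CPM with DMSO, and Lyz2 was at 0 in both. Of 4 endothelial markers, Cdh5 supplied most of the sum, with 56.6 CPM in pyrvinium cells and 41.7 CPM in DMSO cells. The parietal and chief cell genes of the labelled corpus were nearly absent: Atp4b had 0 CPM with pyrvinium and 0.05002 CPM with DMSO, and Cblif had 2.46 CPM with pyrvinium and 3.70 CPM with DMSO. The surface mucous gene Tff1 was present at 404 CPM in pyrvinium cells and 333 CPM in DMSO cells. Tff2 had 33.7 CPM with pyrvinium and 30.2 CPM with DMSO. Muc5ac, Gkn1 and Gkn2, of the same set of corpus markers, were nearly absent. Muc5ac had 0.027 CPM with pyrvinium and 0 CPM with DMSO. Gkn1 had 0.57 CPM with pyrvinium and 1.18 CPM with DMSO, and Gkn2 0.027 CPM with pyrvinium and 0.10 CPM with DMSO.

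Over all cells, the INK4 genes Cdkn2b and Cdkn2a were higher with pyrvinium by at least 1.5-fold, and Ccnd2 and Cdk4 were lower by at least 1.5-fold. The other 6 genes, Cdkn1a, Cdkn1b, Ccnd1, Ccnd3, Cdk6 and Rb1, differed by less than 1.5-fold. A gene was called when its ratio reached 1.5-fold and its whole counting interval lay on that side of 1. The 2 of 10 genes called higher make 20%, beside 7.57% of the 15586 genes with at least 20 counts. The 2 of 10 called lower also make 20%, beside 15.5% of those genes. Scaled by the median of ratios, the background was 12.5% lower and 9.996% higher. The median log2 ratio of the 10 genes was 0.08 and that of all genes tested was -0.08. Summed over the 10 genes, the level was 2024 CPM with pyrvinium and 2002 CPM with DMSO, so the sum was nearly equal while its parts differed. That sum adds inhibitor genes to cyclin and kinase genes. Cdkn1a alone gave 1083 CPM of it with pyrvinium and 839 CPM with DMSO.

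**Figure D1:**
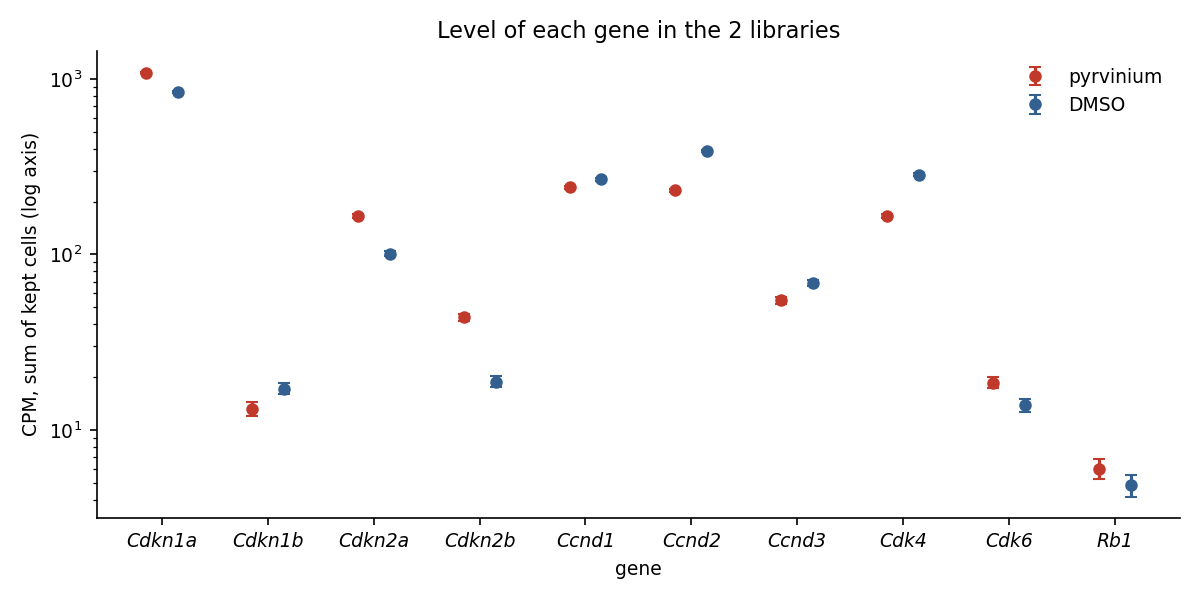
Levels of the 10 genes in CPM (log axis) in the pyrvinium library and the DMSO library, summed over 854 and 1602 cells, with exact Poisson 95% intervals. Cdkn2a and Cdkn2b lie higher with pyrvinium, Ccnd2 and Cdk4 lie lower, and the remaining pairs differ by less than 1.5-fold.

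Cdkn2b (ENSMUSG00000073802), which encodes the kinase inhibitor p15, showed the largest ratio of the 10 genes. It had 1619 counts, or 43.7 CPM (41.6 to 45.9), in pyrvinium cells and 753 counts, or 18.8 CPM (17.5 to 20.2), in DMSO cells. The log2 ratio was 1.21 (1.09 to 1.34), a 2.32-fold higher level with pyrvinium. After every cell was thinned to 5000 counts, 19.4% of pyrvinium cells (16.8 to 22.2) and 8.70% of DMSO cells (7.36 to 10.2) had a Cdkn2b count. Without thinning these shares were 67.1% with pyrvinium and 30.3% with DMSO. No cell type that should lack these genes was identified, so the share that free RNA would give was computed from barcodes with 100 to 500 counts at 10% of a cell's counts: 1.74% with pyrvinium and 0.86% with DMSO. Both observed shares lay above it. The lowest share in any cell cluster was 14.6% with pyrvinium and 4.03% with DMSO. The promoter of Cdkn2b is shown because the gene had the largest ratio. The capitals mark the cyclic AMP response element TGACGTCA, which began at position -46 from the start; 1.79% of the 32851 promoter windows of the same length hold it on either strand. The sequence is RefSeq, build GRCm38.p6, minus strand, chr4:89310983-89311282.
Cdkn2b: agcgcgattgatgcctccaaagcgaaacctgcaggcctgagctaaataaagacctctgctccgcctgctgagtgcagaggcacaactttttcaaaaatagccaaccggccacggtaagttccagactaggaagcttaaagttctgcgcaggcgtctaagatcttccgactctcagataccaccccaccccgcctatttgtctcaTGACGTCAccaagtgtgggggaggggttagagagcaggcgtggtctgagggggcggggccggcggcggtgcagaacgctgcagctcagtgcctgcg

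Cdkn2a (ENSMUSG00000044303) encodes the INK4 protein p16 and, from another start and reading frame, p19ARF, which acts on Mdm2. Counts of the gene pool both transcripts, which share their later exons, so they cannot be told apart here. Cdkn2a had 6147 counts, or 166 CPM (162 to 170.1), in pyrvinium cells and 4028 counts, or 101 CPM (97.7 to 104), in DMSO cells. The log2 ratio was 0.72 (0.66 to 0.78), a 1.65-fold higher level with pyrvinium, but when the shared cell clusters described further on were weighted equally the value was 0.38, under the 1.5-fold limit. A thinned count was found in 43.7% of pyrvinium cells (40.4 to 47.1) and 32.5% of DMSO cells (30.3 to 34.9). Free RNA at 10% would give 8.85% with pyrvinium and 4.42% with DMSO, and the lowest cluster share was 32.9% with pyrvinium and 11.3% with DMSO. The starts are shown because the counts cannot separate them. In capitals is the GC box GGGCGG, with 3 copies in the window of the ARF start, at positions -48, -14 and 32, and 1 copy in that of the p16 start, at position 24; 35.7% of windows hold at least 1 copy and 10.7% at least 3. Both are minus strand of GRCm38.p6 from RefSeq, chr4:89294570-89294869 and chr4:89282143-89282442.
Cdkn2a ARF start: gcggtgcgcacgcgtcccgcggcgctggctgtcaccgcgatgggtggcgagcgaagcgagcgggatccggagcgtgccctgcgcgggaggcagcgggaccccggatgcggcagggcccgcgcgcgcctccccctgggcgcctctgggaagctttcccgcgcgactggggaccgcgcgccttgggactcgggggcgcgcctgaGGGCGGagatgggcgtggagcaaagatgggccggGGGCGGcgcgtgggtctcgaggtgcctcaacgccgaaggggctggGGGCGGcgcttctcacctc
Cdkn2a p16 start: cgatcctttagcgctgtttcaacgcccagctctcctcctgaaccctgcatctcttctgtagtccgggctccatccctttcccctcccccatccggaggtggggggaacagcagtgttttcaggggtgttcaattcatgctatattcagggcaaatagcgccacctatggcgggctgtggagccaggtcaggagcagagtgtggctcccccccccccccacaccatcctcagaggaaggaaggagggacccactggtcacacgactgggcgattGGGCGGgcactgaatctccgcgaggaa

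Cdkn1a (ENSMUSG00000023067) encodes p21, the best known inhibitor of arrested and p53-activated cells. It had 1083 CPM (1073 to 1094) in pyrvinium cells and 839 CPM (830 to 848) in DMSO cells. The log2 ratio of 0.37 (0.35 to 0.39) is 1.29-fold higher with pyrvinium, under the limit. A count was found in 92.3% of thinned pyrvinium cells (90.3 to 94.0) and 84.8% of thinned DMSO cells (82.9 to 86.5), against 42.1% with pyrvinium and 31.0% with DMSO from free RNA at 10%. In 1 random thinning, 57 pyrvinium cells (6.67%) and 230 DMSO cells (14.4%) had 0 Cdkn1a counts, and the median was 5 counts in pyrvinium cells and 3 in DMSO cells. The 75th percentiles were 8 with pyrvinium and 6 with DMSO, and the 90th were 11 with pyrvinium and 10 with DMSO. The upstream promoter is shown for a pair of p53 core letters, CATG with 6 bases of any kind before the next CATG, in capitals and beginning at position -48. Of all windows, 234 (0.712%) hold such a pair. It lies on the plus strand of GRCm38.p6, chr17:29090729-29091028, from RefSeq.
Cdkn1a: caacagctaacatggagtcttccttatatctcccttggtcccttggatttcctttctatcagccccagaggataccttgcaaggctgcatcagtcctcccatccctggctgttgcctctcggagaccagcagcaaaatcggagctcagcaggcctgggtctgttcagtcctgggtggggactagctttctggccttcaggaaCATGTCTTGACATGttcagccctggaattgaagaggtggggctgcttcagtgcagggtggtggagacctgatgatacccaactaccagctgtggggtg

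Cdkn1b (ENSMUSG00000003031), which encodes p27, pointed the other way from Cdkn1a over all cells. It had 13.2 CPM (12.1 to 14.5) in pyrvinium cells and 17.2 CPM (15.9 to 18.5) in DMSO cells, a log2 ratio of -0.38 (-0.55 to -0.21) under the limit. Its thinned share was 6.57% of pyrvinium cells and 8.70% of DMSO cells. The number of Cdkn1a counts per Cdkn1b count was 81.9 with pyrvinium and 48.9 with DMSO, so the pair of Cip/Kip genes shifted further toward Cdkn1a with pyrvinium. Counts per gene are not corrected for transcript length, and only the comparison of the 2 libraries can be read from such a ratio.

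Ccnd2 (ENSMUSG00000000184), a D cyclin gene known to answer growth signals in many cells, was lower with pyrvinium. It had 8589 counts, or 232 CPM (227 to 237), in pyrvinium cells and 15470 counts, or 387 CPM (381 to 393), in DMSO cells. The log2 ratio was -0.74 (-0.78 to -0.70), 1.67-fold lower. A thinned count was found in 58.0% of pyrvinium cells (54.6 to 61.4) and 68.7% of DMSO cells (66.4 to 71.0), against 13.5% with pyrvinium and 21.7% with DMSO from free RNA at 10%. Ccnd1 (ENSMUSG00000070348), the D cyclin best known as a target of Ras and ERK signals, had 241 CPM (236 to 246) in pyrvinium cells and 268 CPM (263 to 273) in DMSO cells, a log2 ratio of -0.15 (-0.20 to -0.11). Ccnd3 (ENSMUSG00000034165), the third D cyclin, had 54.7 CPM in pyrvinium cells and 68.7 CPM in DMSO cells, a log2 ratio of -0.33 (-0.41 to -0.25). All 3 D cyclin genes lay below 0, and Ccnd2 alone passed the limit.

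The makeup of D cyclin counts differed accordingly. Ccnd1 supplied 45.7% of them with pyrvinium and 37.0% with DMSO. Ccnd2 supplied 43.97% with pyrvinium and 53.5% with DMSO, so its share was smaller in the pyrvinium library. Ccnd3 supplied 10.4% with pyrvinium and 9.49% with DMSO. Per D cyclin count there were 2.08 Cip/Kip inhibitor counts (2.04 to 2.12) with pyrvinium and 1.18 (1.17 to 1.20) with DMSO. For the INK4 genes the ratio was 0.398 (0.387 to 0.408) with pyrvinium and 0.165 (0.160 to 0.170) with DMSO. Both sums of inhibitor counts thus stood higher against the D cyclin sum in the pyrvinium library. The Cip/Kip sum was almost all Cdkn1a, 98.79% of it with pyrvinium and 97.99% with DMSO, so its ratio does not describe Cdkn1b. Of the D cyclin genes in the denominator, Ccnd2 alone was called lower.

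**Figure D2:**
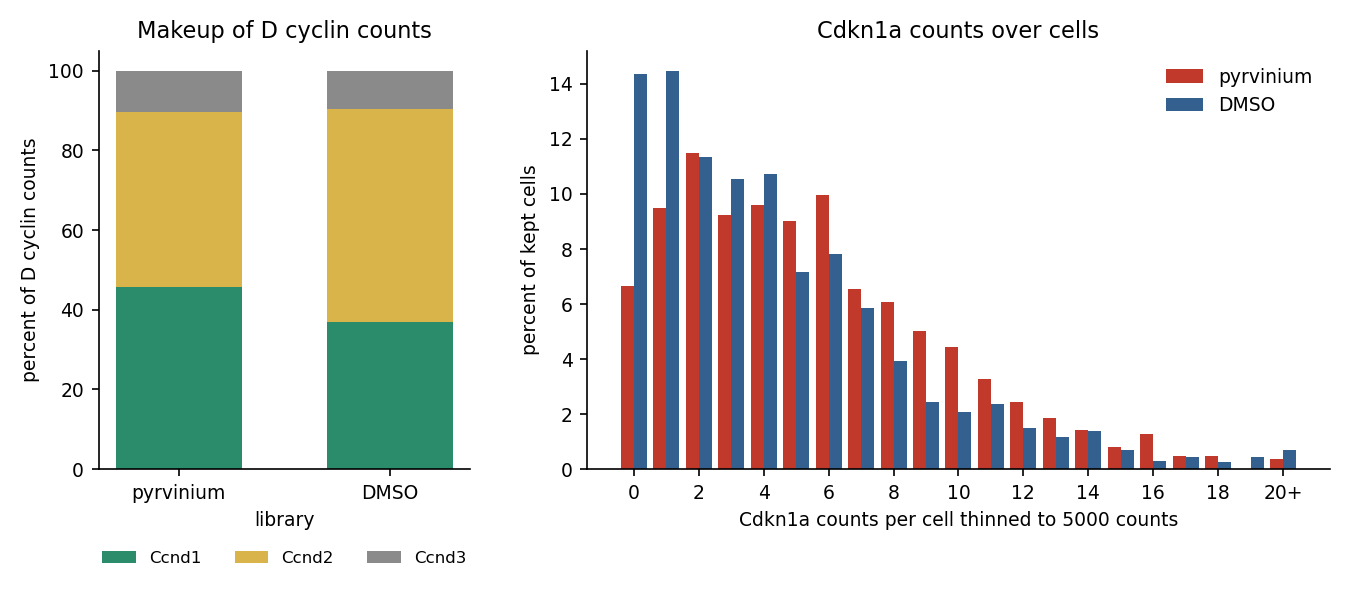
Left, percent of D cyclin counts from Ccnd1, Ccnd2 and Ccnd3 in each library. Right, percent of kept cells (y axis) by their Cdkn1a count after thinning to 5000 counts (x axis). Ccnd1 takes 45.7% of the pyrvinium bar and 37.0% of the DMSO bar, and cells with 0 Cdkn1a counts are 6.67% with pyrvinium and 14.4% with DMSO.

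Cdk4 (ENSMUSG00000006728), the catalytic partner of the D cyclins, was lower with pyrvinium. It had 6145 counts, or 166 CPM (162 to 170.1), in pyrvinium cells and 11348 counts, or 284 CPM (279 to 289), in DMSO cells. The log2 ratio was -0.78 (-0.82 to -0.73), 1.71-fold lower. Its thinned share was 53.9% of pyrvinium cells (50.5 to 57.3) and 69.7% of DMSO cells (67.4 to 71.9), against 7.20% with pyrvinium and 11.2% with DMSO from free RNA at 10%. The Cdk4 promoter is shown for its 4 copies of the E-box CACGTG, in capitals, at positions -172, -118, -98 and -11; 7.15% of all windows hold at least 1 copy and 8 windows hold at least 4. It lies on the plus strand of GRCm38.p6, chr10:127063285-127063584, from RefSeq.
Cdk4: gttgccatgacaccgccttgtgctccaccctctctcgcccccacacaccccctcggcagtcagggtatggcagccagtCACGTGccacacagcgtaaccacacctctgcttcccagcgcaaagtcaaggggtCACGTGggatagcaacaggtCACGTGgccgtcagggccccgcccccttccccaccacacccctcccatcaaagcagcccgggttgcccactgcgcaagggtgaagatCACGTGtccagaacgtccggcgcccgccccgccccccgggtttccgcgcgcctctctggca

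Cdk6 (ENSMUSG00000040274), the second kinase partner, leaned the other way over all cells and stayed under the limit. It had 18.6 CPM (17.2 to 20.04) in pyrvinium cells and 13.8 CPM (12.7 to 15.01) in DMSO cells, a log2 ratio of 0.43 (0.27 to 0.59). In the shared clusters 0, 1 and 2 described further on, its ratio was 0.25, -0.11 and 0.18, each with an interval across 0. With equal cluster weights it was 0.14. Of Cdk4 and Cdk6 counts together, Cdk6 supplied 10.1% with pyrvinium and 4.64% with DMSO. Rb1 (ENSMUSG00000022105), the gene of the retinoblastoma protein, had 222 counts, or 5.99 CPM (5.23 to 6.83), in pyrvinium cells and 193 counts, or 4.83 CPM (4.17 to 5.56), in DMSO cells. Its log2 ratio of 0.31 had an interval of 0.03 to 0.60, the widest of the 10 genes. Only 2.84% of thinned pyrvinium cells and 2.27% of thinned DMSO cells held an Rb1 count, so differences of Rb1 between cells were not detectable at this depth.

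**Figure D3:**
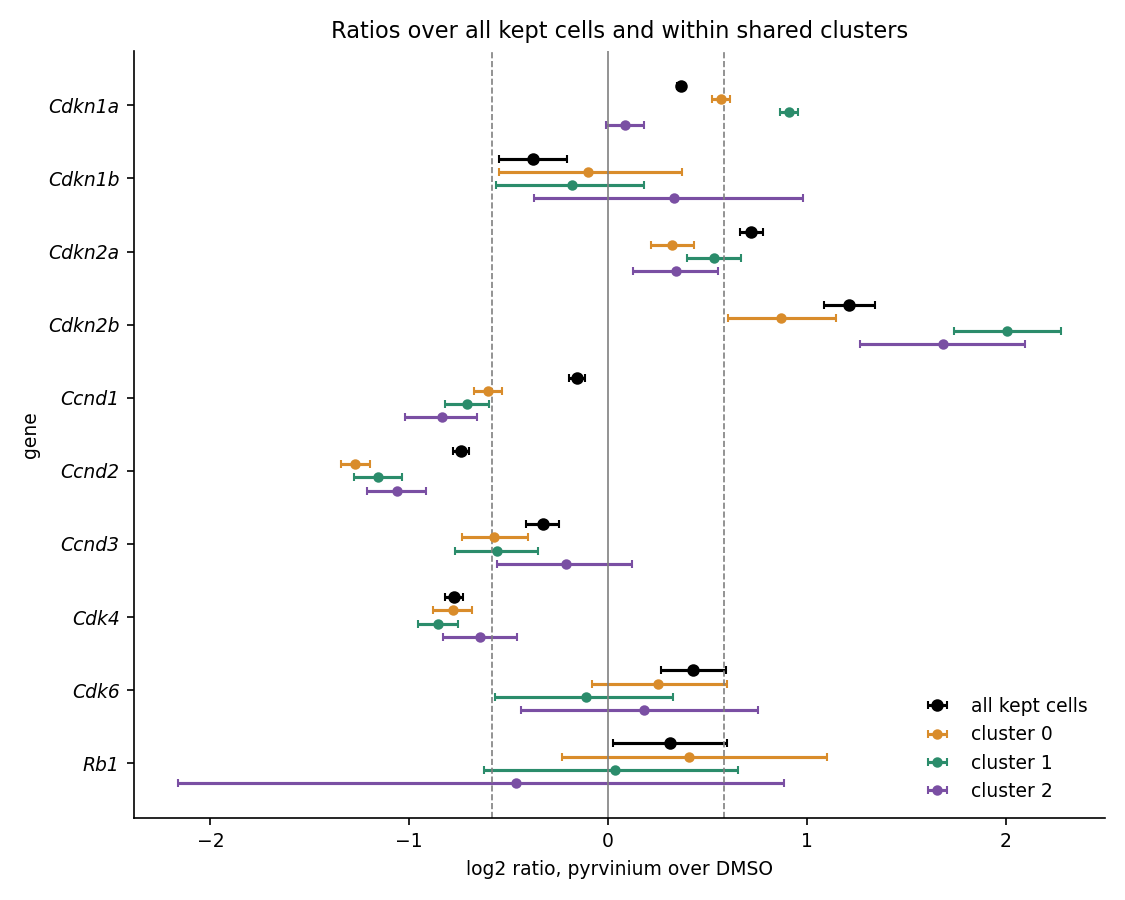
Log2 ratio of pyrvinium over DMSO for the 10 genes over all kept cells and within the shared cell clusters 0, 1 and 2 described below. Exact conditional binomial 95% intervals and the 1.5-fold limits are drawn. Over all kept cells, Cdkn2b (1.21) and Cdkn2a (0.72) lie above the upper limit, and Ccnd2 (-0.74) and Cdk4 (-0.78) below the lower limit. Within clusters 0, 1 and 2, Cdkn2a lies under the upper limit (0.32, 0.53 and 0.34).

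Cells of both libraries were clustered together without the 10 genes, and 3 clusters held at least 30 cells of each library. Cluster 0 (448 pyrvinium and 167 DMSO cells) was led by Crct1, Cnfn and Cav1. Cluster 1 (118 pyrvinium and 546 DMSO cells) was led by the mitotic genes Ccnb1, Cdc20 and Plk1. Cluster 2 (43 pyrvinium and 326 DMSO cells) was led by Mxd4, Bpifb1 and Airn. Clusters 3 (9 pyrvinium and 345 DMSO cells) and 4 (10 pyrvinium and 211 DMSO cells) held mostly DMSO cells, and cluster 5 (226 pyrvinium and 7 DMSO cells) mostly pyrvinium cells. With 1 library per treatment, a cluster mostly of 1 library and that library cannot be told apart.

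Cdkn2b was higher and Ccnd2 and Cdk4 were lower with pyrvinium in each of the 3 shared clusters. The log2 ratios of Cdkn2b were 0.87, 2.01 and 1.69 in clusters 0, 1 and 2. Those of Ccnd2 were -1.27, -1.16 and -1.06, and those of Cdk4 were -0.78, -0.86 and -0.64. In cluster 0, 1 gene was called higher and 3 lower, beside 7.4% higher and 19% lower of all genes tested there. In cluster 1, 2 genes were called higher and 3 lower, beside 10.1% higher and 17.7% lower. In cluster 2, 1 gene was called higher and 3 lower, beside 5.58% higher and 11.5% lower. The third gene called lower in each was Ccnd1, at -0.60, -0.71 and -0.84, although over all cells it was near level. At a finer clustering (Leiden resolution 1.0), Cdkn2b, Ccnd2 and Cdk4 kept their calls in 3 of 3 shared clusters. Ccnd1 was then called in 0 of 3, with log2 ratios of -0.58 to 0.13.

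Cdkn1a was called higher in cluster 1 alone, where it had 1302 CPM in pyrvinium cells and 693 CPM in DMSO cells, a log2 ratio of 0.91 (0.86 to 0.96). In cluster 0 its ratio was 0.57, and in cluster 2 it was 0.09. At the finer clustering Cdkn1a was called in 0 of 3 shared clusters. Cdkn2a stayed under the limit in clusters 0, 1 and 2, at 0.32, 0.53 and 0.34, and was called higher in 2 of 3 at the finer clustering. Ccnd3 had log2 ratios of -0.57, -0.56 and -0.21 in the 3 clusters, under the limit, and was called lower in 1 of 3 (-0.65) at the finer clustering. Cdkn1b had -0.10, -0.18 and 0.33 in clusters 0, 1 and 2, each with an interval across 0. At the finer clustering Cdkn1b had -1.08, called lower, and 0.42 and -0.98, not called.

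**Figure D4:**
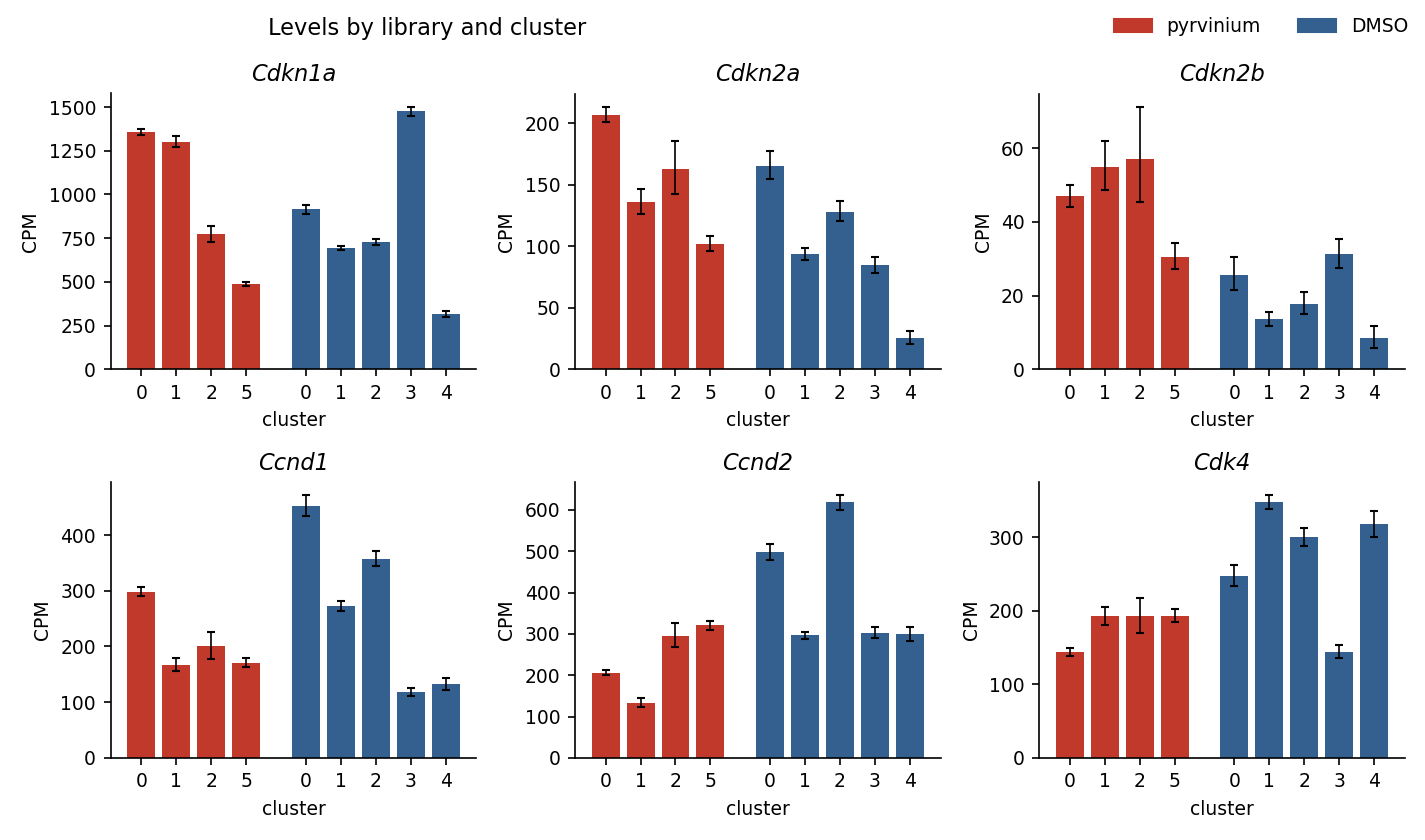
Levels of Cdkn1a, Cdkn2a, Cdkn2b, Ccnd1, Ccnd2 and Cdk4 in CPM by cluster and library, with exact Poisson 95% intervals, for clusters with at least 30 cells of that library. Cdkn2b stands higher with pyrvinium and Ccnd2 and Cdk4 stand lower with pyrvinium in clusters 0, 1 and 2, and Cdkn1a is highest in DMSO cluster 3 (1475 CPM).

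Between the highest and the lowest cluster of a library, Cdkn2a differed 2.03-fold with pyrvinium and 6.51-fold with DMSO, and Cdkn1a 2.78-fold with pyrvinium and 4.63-fold with DMSO. In pyrvinium cells Cdkn1a had 1357 CPM in cluster 0, 1302 in cluster 1, 773 in cluster 2 and 489 in cluster 5. In DMSO cells it had 1475 CPM in cluster 3, led by Ccl5 and Cited1, then 916 in cluster 0, 729 in cluster 2, 693 in cluster 1 and 319 in cluster 4, led by Lcn2 and Pigr. The counting intervals of pyrvinium cluster 2 and DMSO cluster 2 overlapped. For Cdkn2a the levels were 207 CPM in pyrvinium cluster 0, 163 in cluster 2, 136 in cluster 1 and 102 in cluster 5. In DMSO cells Cdkn2a had 166 CPM in cluster 0, 128 in cluster 2, 94.0 in cluster 1, 84.5 in cluster 3 and 25.5 in cluster 4. DMSO cluster 4 was thus the low end for both inhibitors.

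Cdkn2b had 57.2 CPM in cluster 2, 54.9 in cluster 1, 47.0 in cluster 0 and 30.6 in cluster 5 of the pyrvinium library. In the DMSO library it had 31.2 CPM in cluster 3, 25.7 in cluster 0, 17.8 in cluster 2, 13.7 in cluster 1 and 8.48 in cluster 4. The interval of pyrvinium cluster 5, the lowest of its library, overlapped that of DMSO cluster 3, the highest of its library. Ccnd1 had 298 CPM in cluster 0, 200.5 in cluster 2, 170.5 in cluster 5 and 167 in cluster 1 of the pyrvinium library, and 453 in cluster 0, 358 in cluster 2, 272 in cluster 1, 133 in cluster 4 and 118 in cluster 3 of the DMSO library. Cluster 0 thus held the highest Ccnd1 level in both libraries. Between the highest and the lowest cluster, Ccnd3 differed 1.29-fold with pyrvinium and 1.58-fold with DMSO, and Cdkn1b 1.82-fold with pyrvinium and 2.26-fold with DMSO. For Cdk6 the ratio was 1.88-fold with pyrvinium and 2.22-fold with DMSO.

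Ccnd2 was highest in DMSO cluster 2 (618 CPM) and DMSO cluster 0 (498 CPM). Its levels in pyrvinium cells were 320.3 CPM in cluster 5, 296 in cluster 2, 206 in cluster 0 and 133 in cluster 1. DMSO clusters 1, 3 and 4 held 296, 303 and 299 CPM, and their counting intervals overlapped one another. Cdk4 in pyrvinium cells held a narrow range, 144 CPM in cluster 0 and 192 to 193 CPM in clusters 1, 2 and 5. In DMSO cells it had 348 CPM in cluster 1, 318 in cluster 4, 300.4 in cluster 2, 248 in cluster 0 and 145 in cluster 3. DMSO cluster 3, with the highest Cdkn1a, thus held the lowest Cdk4 of that library.

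Scores of S-phase and G2M genes, which held none of the 10 genes, put 48 pyrvinium cells (5.62%) and 349 DMSO cells (21.8%) in the S class. The G2M class held 138 pyrvinium cells (16.2%) and 413 DMSO cells (25.8%), and neither class 668 pyrvinium cells (78.2%) and 840 DMSO cells (52.4%). These classes are ranges of a score: 61 pyrvinium and 267 DMSO cells lay within 0.05 of the S limit, and a role of free RNA in the scores was not tested. Cdk4 had 228, 184 and 158 CPM in the S, G2M and remaining classes of pyrvinium cells, and 355, 321 and 229 CPM in those of DMSO cells. Ccnd2 had 309, 174 and 240.1 CPM in pyrvinium cells and 428, 232 and 459.6 CPM in DMSO cells. Cdkn2b had 43.9, 51.8 and 41.9 CPM in pyrvinium cells and 11.2, 16.3 and 23.8 CPM in DMSO cells. Each of the 3 genes thus differed in the same direction in every class as over all cells.

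Cdkn1a had 868, 1167 and 1077 CPM in the S, G2M and remaining classes of pyrvinium cells, and 669.9, 731 and 981 CPM in DMSO cells. The S value of pyrvinium cells rests on 48 cells and was 1264 CPM in 19 cells at a score limit of 0.1. Cells were also grouped by their thinned Cdkn1a count, 0, 1 to 2 or at least 3, a split of 1 gene's counts and not a cell type. Levels in these groups are CPM of thinned counts, given without intervals. Cdk4 had 186, 173 and 145 CPM across these groups in pyrvinium cells and 319, 299 and 241 CPM in DMSO cells. Cdkn2a had 49.1, 112 and 184 CPM in pyrvinium cells and 32.2, 80.7 and 125 CPM in DMSO cells. The pyrvinium group with 0 Cdkn1a counts was small, 57 cells with 53 Cdk4 counts and 14 Cdkn2a counts. E2F target genes summed to 337, 432 and 388 CPM in pyrvinium cells and 949, 948 and 753 CPM in DMSO cells.

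Over single cells the thinned counts were weakly correlated, at a mean of 0.769 Cdk4 counts per pyrvinium cell and 1.34 per DMSO cell. Counting noise at this depth weakens such values, so they do not show how closely the genes themselves are related. After thinning, Pearson's r of Ccnd1 with Ccnd2 was 0.267 over 854 pyrvinium cells and 0.313 over 1602 DMSO cells. That of Cdkn1a with Cdk4 was -0.122 in pyrvinium cells and -0.171 in DMSO cells. Inhibitor genes were not uniformly negative with the D cyclin genes. Cdkn2a with Ccnd1 had 0.170 in pyrvinium cells and 0.213 in DMSO cells, and Cdkn1a with Ccnd2 had -0.118 and 0.034. For Cdkn1a with Cdkn2a, r was 0.251 in pyrvinium cells and 0.139 in DMSO cells. Over the 9 library-by-cluster sums, which share libraries, the genes most like Cdk4 among 4328 genes that reached 20 CPM in either library were Mcm4 (r = 0.989), Trp53 (0.987) and Msto1 (0.985). For Cdkn2b they were Stom (0.979), Snhg6 (0.975) and Trp53cor1 (0.961). For Cdkn1a they were Rhoa (0.963), Rundc1 (0.954) and Pip5k1a (0.943), and for Cdkn2a Mtpn (0.961), Col4a2 (0.952) and Cnn2 (0.949). For Ccnd2 they were Wwc1 (0.949), Endod1 (0.938) and Vamp5 (0.935), for Ccnd1 Ptp4a3 (0.916), Krt7 (0.892) and Ehd1 (0.892), and for Ccnd3 Cavin1 (0.940), Ano1 (0.910) and Bcam (0.882). These values describe 9 sums that are not independent. Each is a top pick from 4328 genes, and no reference level for such a pick was computed.

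Other genes of the G1 to S step were called lower more often than higher. Of 22 genes in this list, 2 were called higher, 9 lower and 11 neither, beside 7.57% higher and 15.5% lower of all genes, and the list's median log2 ratio was -0.42. Ccne1, the cyclin that follows the D cyclins, had 7.15 CPM in pyrvinium cells and 17.0 CPM in DMSO cells (-1.25), and its kinase Cdk2 had 10.1 CPM in pyrvinium cells and 20.8 CPM in DMSO cells (-1.04). Tfdp1, a partner of E2F proteins, had 25.9 CPM in pyrvinium cells and 45.3 CPM in DMSO cells (-0.80), while Mnat1, of the kinase complex that activates Cdks, had 75.9 CPM in pyrvinium cells and 40.0 CPM in DMSO cells (0.92). Of 16 E2F target genes of replication, 15 were called lower and 0 higher, with a median of -1.23. The helicase genes Mcm7 (9.58 CPM in pyrvinium cells, 37.0 CPM in DMSO cells), Mcm5 (10.3 CPM in pyrvinium cells, 38.0 CPM in DMSO cells) and Mcm3 (9.99 CPM in pyrvinium cells, 28.9 CPM in DMSO cells) and the nucleotide reductase gene Rrm2 (34.7 CPM in pyrvinium cells, 109.7 CPM in DMSO cells) were those farthest from 0 on the log2 scale among genes of at least 10 CPM. Mcm5, Mcm7, Rrm2 and other genes of this list are also genes of the S score. The share of S-class cells given above is therefore not a separate measure from this list, and its part in the list's difference was not tested.

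Genes that control the stability of cyclins and inhibitors showed 1 of 14 called higher (7.14%) and 4 lower (28.6%), beside 7.57% higher and 15.5% lower of all genes, with a median of -0.14. With equal cluster weights, 2 were called lower, beside 20.7% lower of all genes in that setting. The ubiquitin ligase scaffold Cul1 had 46.5 CPM in pyrvinium cells and 26.5 CPM in DMSO cells (0.81). Its partner Skp1 had 199 CPM in pyrvinium cells and 329.8 CPM in DMSO cells (-0.73), and Cks1b, which helps to hand p27 to the ligase, had 95.6 CPM in pyrvinium cells and 154 CPM in DMSO cells (-0.69). Of 16 p53 targets other than Cdkn1a, 1 was called higher, Trp53inp1 (16.8 CPM in pyrvinium cells, 10.4 CPM in DMSO cells), and 1 lower, Btg2 (129 CPM in pyrvinium cells, 229 CPM in DMSO cells). Each is 6.25% of the list, beside 7.57% higher and 15.5% lower of all genes, and the median was -0.05, near that of all genes. The call of Trp53inp1 was lost, with 0 genes of the list called higher, in 6 of 13 alternatives, and 2 or 3 genes were called lower in 7 of 13.

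**Figure D5:**
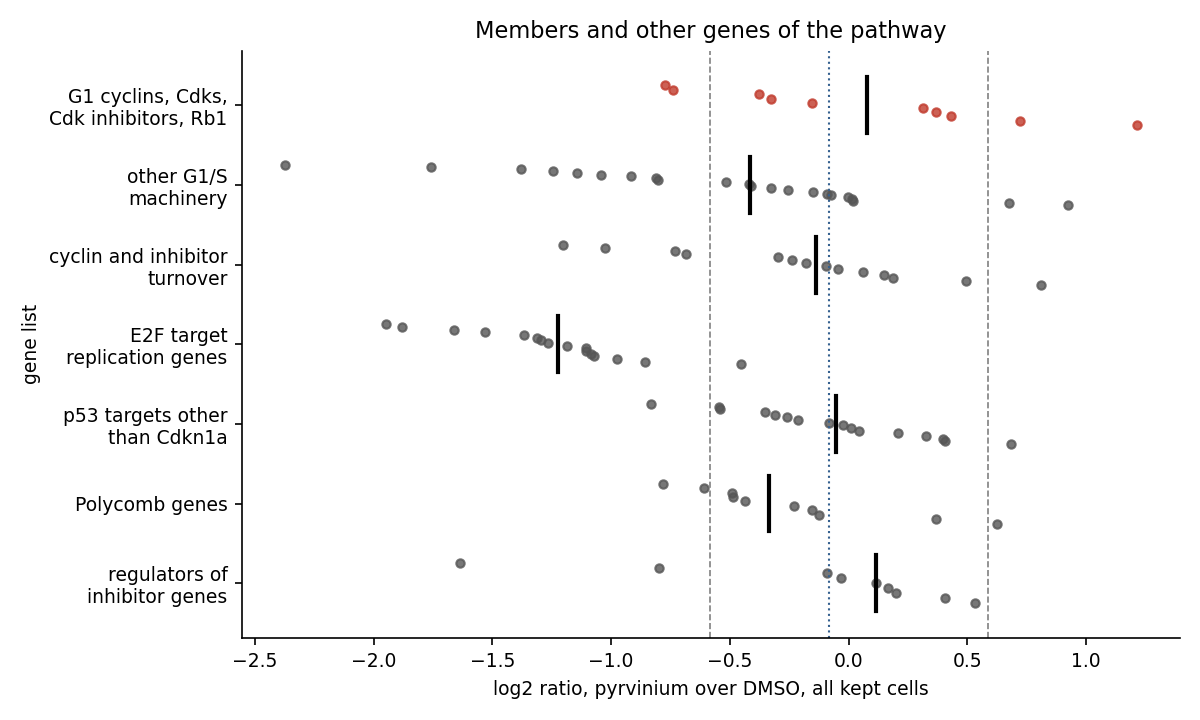
Log2 ratios of pyrvinium over DMSO of the 10 genes and of the genes of 6 related lists (points), with each list's median (bar), the median of all genes (dotted, -0.08) and the 1.5-fold limits (dashed). The E2F target list lies farthest below 0, with a median of -1.23.

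In barcodes with 100 to 500 counts, taken as free RNA, the same genes were unequal between libraries. Cdkn2b had 35.04 CPM there with pyrvinium and 17.3 CPM with DMSO. Cdkn2a had 185 CPM with pyrvinium and 90.4 CPM with DMSO. Ccnd2 had 289.6 CPM with pyrvinium and 488 CPM with DMSO, and Cdk4 had 149 CPM with pyrvinium and 237 CPM with DMSO. The 4 called genes therefore differed the same way outside the cells, and the part of free RNA in the cells' values was not tested. With 10% of this profile subtracted from the cells, all 4 kept their calls.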

How the data were processed

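Per the labels' protocols, cells were captured with PIPseq and sequenced from its T2 kit. Partek and GRCm39 appear in the submitters' processing notes. Of aligner, counter, annotation and barcode filter nothing is given in the sources used here. The deposited values are raw counts, whole numbers for each gene in each barcode. Whether a count is a molecule is not stated.

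Per library, the 99th percentile of counts among the top 2000 barcodes was found, and a barcode with at least 0.1 of it was a cell if 500 or more genes were detected and mitochondrial counts did not exceed 20%; 0 were removed by that limit. Doublets were not removed, since Scrublet called 1 pyrvinium and 3 DMSO cells, too few for a working call; 0 cell barcodes were shared. Counts summed per library were scaled to CPM, with Poisson intervals, conditional binomial intervals for ratios and a floor of 3 counts for 0. Genes with at least 20 counts formed the background. Shares are expected values after thinning to 5000 counts, with Clopper-Pearson intervals. Cells were clustered with scanpy 1.11.5 (Python 3.11.15, numpy 2.4.6, scipy 1.17.1, igraph 0.11.9) on 2000 variable genes without the 10 genes, log counts per 10000 z-scored within library, 30 components, 15 neighbours and Leiden resolution 0.5. The ratio computation was tested on simulated counts.

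The genes and lists were chosen with earlier results of these data known. The corpus marker list was added after the data were seen. Besides the 10 genes, up to 4 per list are named, of those that reached 10 CPM in either library, by largest absolute log2 ratio. Also named are the 3 genes most alike by Pearson correlation of log2(CPM + 1). Corpus and marker genes at 0 or near it, and Cdkn1c, Cdkn2c and Cdkn2d, were named after their values were seen. RefSeq promoters (GRCm38.p6, 250 bases before to 50 after the start) were found for 7 of the 10 genes in 10 windows. Both strands were searched for the E-box (CACGTG), the cyclic AMP response element (TGACGTCA), the GC box (GGGCGG), the E2F core (TTTNGCGC), the CHOP-ATF composite (TGATGNAA), the AP-1 site (TGANTCA), the CCAAT box and the p53 pair. Positions are those of a match's first base. The alternatives tried were other count thresholds, mitochondrial limits, scalings, cell weights, doublet and free RNA settings, depth ranges, minimum counts, thinning depths, cluster resolution and score limits.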

Additional observations from a re-analysis of the deposited data

How the results depend on the processing

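Under 13 alternatives for the summed ratios, Cdkn2b (1.17 to 1.48), Ccnd2 (-1.15 to -0.65) and Cdk4 (-0.90 to -0.69) kept their calls. Cdkn2a kept its call in 12 and had 0.38 with equal cluster weights, so 1 of the 10 genes was then called higher. Ccnd1 had -0.70 with those weights, past the limit. Rb1 had -0.29 when both libraries were held to 1 range of counts per cell, and Cdkn1b 0.02 with equal cluster weights. With equal cluster weights 2 turnover genes were called lower, and 1 other G1 to S gene was called higher, as with the mean over cells. Of all genes, 20.7% were lower and 10.5% higher with equal cluster weights, and 8.13% were higher with the mean over cells. For p53 targets, 0 were called higher at thresholds of 1000 and 3000 counts, with the mean over cells, with 10% of the RNA profile of 10-to-100-count barcodes removed, with equal cluster weights and in the shared count range. Of p53 targets, 2 were called lower at those thresholds, at the pyrvinium threshold in both libraries, with equal cluster weights and in the shared count range, and 3 with the mean over cells and with that profile removed. The cause of these shifts was not tested. Over the alternatives, the share of all genes called lower ran from 9.87% to 20.7%, and that called higher from 4.87% to 10.5%. No paired analysis was possible because each treatment had 1 library, and leaving out a replicate could not be done for the same reason. Depth limits Rb1, Cdk6 and Cdkn1b most, with 193 to 689 counts per library.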

Other observations

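Genes that act on the inhibitor genes themselves were mixed. Of 10 Polycomb genes, whose proteins silence the Cdkn2a and Cdkn2b locus in many cells, 1 was called higher and 2 lower with pyrvinium, beside 7.57% higher and 15.5% lower of all genes, and the median log2 ratio was -0.33. The methyltransferase gene Ezh2 was the one called higher, with 81.7 CPM in pyrvinium cells and 52.9 CPM in DMSO cells (0.63). Its partner Eed had 18.03 CPM in pyrvinium cells and 25.3 CPM in DMSO cells (-0.49), under the limit. Rnf2 had 15.2 CPM in pyrvinium cells and 11.8 CPM in DMSO cells (0.37), also under the limit. The 2 Polycomb genes called lower had less than 10 CPM in both libraries. Of 9 transcriptional regulators of inhibitor genes, 0 were called higher and 2 lower (22.2%), beside 7.57% higher and 15.5% lower of all genes. Their median log2 ratio was 0.11. Klf6, a zinc finger factor known to act on Cdkn1a, had 38.1 CPM in pyrvinium cells and 118 CPM in DMSO cells (-1.64). Klf4, another such factor, had 12.3 CPM in pyrvinium cells and 21.4 CPM in DMSO cells (-0.80). Foxo3, a forkhead factor of Cdkn1b, had 18.9 CPM in pyrvinium cells and 13.1 CPM in DMSO cells (0.53), under the limit.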
